A study of Mus musculus with 2 samples.

Results

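Glutathione transferases of the alpha, mu and theta classes were followed in mouse liver after thioacetamide. The members are 10 genes, 4 of the alpha class (Gsta1, Gsta2, Gsta3 and Gsta4), 5 of the mu class (Gstm1, Gstm2, Gstm3, Gstm4 and Gstm6) and 1 of the theta class (Gstt1), of 22803 genes named on the arrays. They were chosen by gene name, as every non-control probe whose name in both scanner files is one of these symbols or a synonym. This gave 18 probes on 27 spots, all found by the symbol itself. The arrays are Agilent 2-colour expression arrays with probes of 60 bases, read as Cy5 (red) over Cy3 (green). Total RNA came from livers of mice on a C57BL/6 background. On the wild-type array, Cy5 held RNA of wild-type liver with thioacetamide and Cy3 RNA of wild-type liver without treatment. On the AID transgenic array, Cy5 held RNA of AID transgenic liver with thioacetamide and Cy3 RNA of AID transgenic liver without treatment. Thioacetamide was given in drinking water for 6 months. The promoter that drives the AID transgene, the sex and age of the animals, the age of the untreated mice relative to the treated ones, and whether a channel held 1 animal or a pool were not stated in the labels or the design text. There was 1 array per genotype, with no replicate and no dye swap, so no test was possible, and a dye effect cannot be told apart from treatment. In bulk liver, fewer cells of a type and less RNA per cell cannot be told apart.

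Glutathione transferases join the tripeptide glutathione to electrophilic compounds, which makes them more soluble and lets the cell export them. Alpha and mu enzymes are abundant cytosolic proteins of hepatocytes, where they act on drug metabolites, on products of lipid peroxidation and on plant and food compounds. Several of their genes are known targets of the transcription factor Nrf2, encoded by Nfe2l2, which is held back by Keap1, and of the nuclear receptors Nr1i2 (PXR) and Nr1i3 (CAR). Thioacetamide is a hepatotoxin that liver cytochrome P450 and flavin monooxygenases oxidise to reactive metabolites, and long exposure is a standard model of liver fibrosis.

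All 18 member probes were well above background in all 4 channels, by the scanner software's own call, and none of their spots was saturated. Over all spots, the wild-type array had 56.0% detected in this way in Cy3 and 68.4% in Cy5, and the AID transgenic array 53.9% and 68.8%. Across 399 probes printed as 10 spots, the median SD of the log2 ratio between spots was 0.07 on each array, which is technical spread only. The 6 hepatocyte markers on the arrays were well above background in all 4 channels, with summed linear levels from 717100 to 777700, and the level of Alb (albumin) was 16.98 and 17.58 in untreated and treated wild-type liver and 17.28 and 17.45 in untreated and treated AID transgenic liver. Single hepatocyte markers went apart by treatment, with 4 of 6 log2 ratios below 0 in wild-type and 2 of 6 in AID transgenic liver (medians -0.22 and 0.04). Apoa1, an apolipoprotein gene, was at -1.79 and -1.84 and Serpina1a at -0.94 and -0.42, against 0.60 and 0.17 for Alb. The wild-type channels went apart in sex-linked transcripts. Xist, the RNA of the inactive X chromosome, was at least 6.18-fold higher in treated than in untreated wild-type liver, while Ddx3y and Eif2s3y, which are Y-linked, were lower by at least 17.6-fold and 32.1-fold. In AID transgenic liver, neither channel had Xist well above background, and the log2 ratios of Ddx3y and Eif2s3y were -0.11 and -0.05. Of 10 genes known to be higher in male liver, 9 were at least 2-fold lower in treated wild-type liver and 5 in treated AID transgenic liver. All 9 genes on the arrays known to be higher in female liver were at least 2-fold higher in treated wild-type liver, against 1 of 8 measured in treated AID transgenic liver. On the wild-type array, treatment and this difference in sex-linked transcripts cannot be told apart, so each treatment value below is given for both arrays.

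The probes of Gsta1 and Gsta2 read near-identical transcripts, and how far a probe can tell them apart bears on every value of the pair. The gene model Gm10639, a close relative next to them on the chromosome, has 2 probes of its own on the arrays. Shown are 30 bases of 1 probe of each gene, 5′ to 3′, where capitals mark the positions that differ among the 3.
Gsta1: ctggcctctaatGgtttgcaattataaaaA
Gm10639: ctggcctctaatGgtttgcaattataaaaT
Gsta2: ctggcctctaatTgtttgcaattataaaaT
Counted from 1 at the first base shown, with Gsta1 as the reference, Gsta2 differed by G13T and A30T and Gm10639 by A30T. Over the full 60 bases, the Gsta2 probe and this Gm10639 probe shared 58 letters. The best alignment of the Gsta1 probe with the Gsta2 probe held 46 matching letters over 50 aligned positions, and with the Gm10639 probe 47 over 51. RNA of any of these genes could bind the others' probes, so the values of Gsta1 and Gsta2 may be read as those of a group of related transcripts. For the other 16 member probes, no alignment with a probe of another gene held 40 or more matching letters. Only probes that shared an exact run of 12 letters were aligned, so relatives with scattered differences could be missed. Probes were compared with probes only, so binding to related transcripts outside the probed stretches was not tested.

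Gsta1 and Gsta2 gave the largest treatment ratios of the 10 members on both arrays. Gsta1 encodes an alpha transferase and has 1 probe, placed by the files at chr9:78090411-78090470 (mm9, plus strand). Its normalized level, as log2 intensity, was 10.98 in untreated and 15.30 in treated wild-type liver, and 11.32 in untreated and 15.73 in treated AID transgenic liver. Both treated values lay far above both untreated ones. The log2 ratio of treated over untreated was 4.32 ± 0.46 in wild-type and 4.41 ± 0.47 in AID transgenic liver, or 20.0-fold and 21.2-fold. For each treatment ratio, here and below, the value after ± is a technical error in log2 units. It is what the scanner software's error model gives for its log ratio, averaged over a gene's probes, and holds no animal-to-animal spread. Among all measured genes, Gsta1 stood 5th of 16663 from the top on the wild-type array and 1st of 16693 on the AID transgenic array. The spot's mean signal before any correction was 1414 in Cy3 and 65188 in Cy5 on the wild-type array, and 1563 and 76079 on the AID transgenic array.

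Gsta2, an alpha transferase of similar substrate range, has 1 probe at chr9:78178856-78178915 (mm9, minus strand). Its level was 11.96 and 15.25 in untreated and treated wild-type liver, and 12.58 and 15.53 in untreated and treated AID transgenic liver. Again both treated livers were above both untreated ones. The treatment log2 ratio was 3.28 ± 0.37 in wild-type liver, 13th from the top, and 2.95 ± 0.34 in AID transgenic liver, 6th from the top. The related Gm10639 behaved alike, though its 2 probes, at chr9:78153243-78153302 and chr9:78153199-78153258 (mm9), gave unequal values. The first, whose bases are shown above, gave log2 ratios of 4.04 ± 0.44 in wild-type and 3.89 ± 0.42 in AID transgenic liver. The second gave 2.51 ± 0.32 and 2.05 ± 0.28. The first probe had the higher ratio on both arrays, by more than the technical errors.

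Gsta3 and Gsta4 had positive ratios under 2-fold on both arrays, but with median centring both were at least 2-fold higher in treated wild-type liver (1.26 and 1.54), as was Gsta4 in treated AID transgenic liver (1.11). Gsta3, an alpha transferase with high activity toward aflatoxin epoxide in mouse, has 2 probes on chromosome 1, at chr1:21255043-21255102 and chr1:21255189-21255248 (mm9). Its mean level was 16.15 and 16.56 in untreated and treated wild-type liver, and 16.24 and 16.37 in untreated and treated AID transgenic liver. The log2 ratios were 0.41 ± 0.21 and 0.13 ± 0.20, so only the wild-type value exceeded its technical error. The AID transgenic value turned to -0.01 with the scanner software's processed signals. Gsta4 acts on 4-hydroxynonenal, an aldehyde of lipid peroxidation, and its 1 probe, which the files spread over chr9:78046172-78047344 (mm9), was printed as 10 spots. Its level was 9.75 and 10.62 in untreated and treated wild-type liver, and 9.80 and 10.25 in untreated and treated AID transgenic liver. Both treated values were above both untreated values, and the log2 ratios were 0.87 ± 0.22 and 0.45 ± 0.21. The SD over the spots was 0.04 on each array, from 9 spots in wild-type and 10 in AID transgenic liver.

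**Figure D1:**
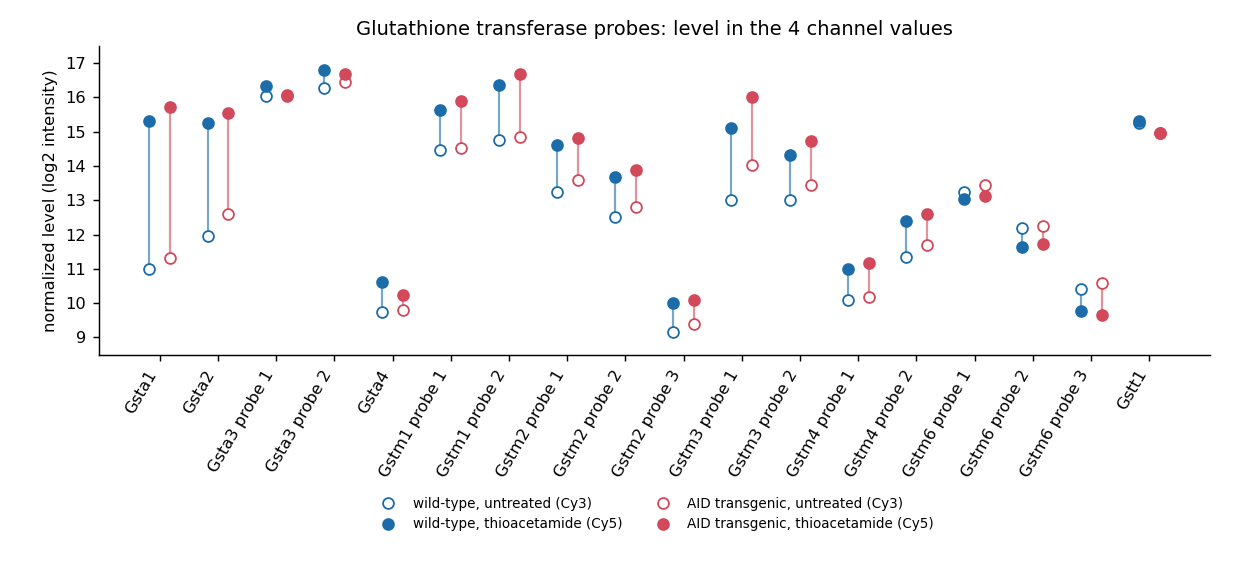
Normalized level (log2 intensity) of each of the 18 probes in the 4 channel values, with open points for untreated (Cy3) and filled points for treated liver (Cy5), blue for wild-type and red for AID transgenic. The Gsta1 and Gsta2 probes show the widest gaps between untreated and treated liver, and the 3 Gstm6 probes lie lower in treated than in untreated liver on both arrays, which with median centring turned for the gene's mean.

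Of the mu class, 4 genes had positive ratios and 1, Gstm6, had negative ratios that turned positive with median centring. Gstm1 encodes a main mu enzyme of mouse liver. Of its 2 probes, the files place 1 at chr3:107815595-107815654, and the other at chr5:117082490-117082549, away from the mu cluster (mm9). Its mean level was 14.61 and 15.99 in untreated and treated wild-type liver, and 14.69 and 16.29 in untreated and treated AID transgenic liver. The log2 ratios were 1.38 ± 0.24 and 1.60 ± 0.25. The probe placed on chromosome 3 gave 1.16 and 1.36, and the probe placed on chromosome 5 gave 1.59 and 1.84, so each exceeded 2-fold on both arrays.

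Gstm3 had the largest ratios of the mu class. Its mean level was 13.01 and 14.71 in untreated and treated wild-type liver, and 13.73 and 15.36 in untreated and treated AID transgenic liver. The log2 ratios were 1.70 ± 0.26 and 1.63 ± 0.25. Its 2 probes were unequal on each array. The probe at chr3:107766615-107766674 (mm9) gave 2.08 and 1.98, and the other, whose bases the files spread over chr3:107769290-107770549, gave 1.32 and 1.28.

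Gstm2 and Gstm4 lay on either side of the 2-fold line. Gstm2, with 3 probes, had mean levels of 11.63 and 12.77 in untreated and treated wild-type liver, and of 11.93 and 12.93 in untreated and treated AID transgenic liver. Its log2 ratios were 1.13 ± 0.23 and, just at the 2-fold line, 1.0006 ± 0.23, with single probes between 0.84 and 1.36 in wild-type and between 0.69 and 1.24 in AID transgenic liver. Gstm4, with 2 probes, had mean levels of 10.73 and 11.70, and of 10.94 and 11.88, in the same order. Its log2 ratios were 0.96 ± 0.22 and 0.94 ± 0.22. The 2 genes thus differed from each other by less than their technical errors, although Gstm2 counts as 2-fold higher and Gstm4 does not. Gstm4 did pass the 2-fold line on both arrays with median centring, and in wild-type liver with its brightest probe alone.

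Gstm6 had the only negative ratios beyond the technical error among the members. Its mean level over 3 probes was 11.94 and 11.48 in untreated and treated wild-type liver, and 12.10 and 11.50 in untreated and treated AID transgenic liver. Both treated values were below both untreated values. The log2 ratios were -0.46 ± 0.21 and -0.59 ± 0.21, less than 2-fold, and all 3 probes were negative on both arrays, from -0.62 to -0.21 and from -0.93 to -0.30. With median centring in place of loess these ratios turned to 0.24 and 0.10. The neighbouring Gstm7, which is not a member, was also below 0, at -0.15 ± 0.21 and -0.38 ± 0.21, and turned positive with median centring too. To show how a probe of Gstm3 differs from one of each of these neighbours, 30 bases from a shared stretch of a Gstm3, a Gstm6 and a Gstm7 probe are given, 5′ to 3′, with capitals at the 14 positions that differ among the 3.
Gstm3: atggacaCCcgCatACAgCtCATGaTAGtt
Gstm6: atggacaCTcgAatTCAgAtGGGCaTGCtt
Gstm7: atggacaACcgCatGGTgCtGGCGaGGCtt
Counted against Gstm3, Gstm6 and Gstm7 each differed at 10 of these 30 positions. The Gstm3 probe shown is the one with the ratios of 1.32 and 1.28, and the Gstm6 probe shown gave -0.62 and -0.93.

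Gstt1 was the one member near a ratio of 0 on both arrays. Theta enzymes act on small halogenated compounds, and Gstt1 has 1 probe at chr10:75246560-75246619 (mm9, minus strand). Its level was 15.24 and 15.31 in untreated and treated wild-type liver, and 14.97 and 14.96 in untreated and treated AID transgenic liver. The log2 ratios were 0.07 ± 0.20 and -0.01 ± 0.20, within the technical error. The AID transgenic ratio turned to 0.01 with a normexp offset of 0, and with median centring the ratios were 0.88 and 0.76.

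**Figure D2:**
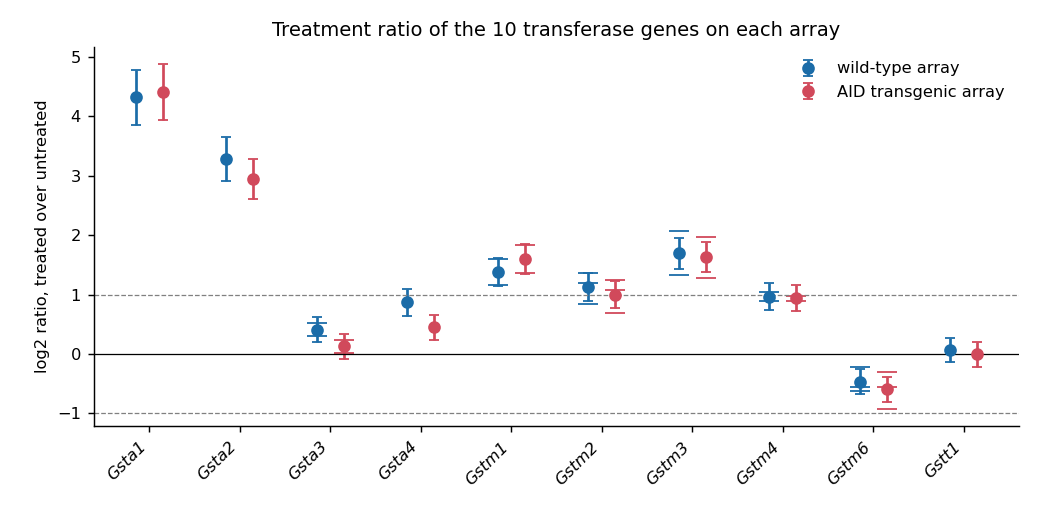
Log2 ratio of treated over untreated for each of the 10 genes, blue for the wild-type and red for the AID transgenic array, with bars for the technical error from the scanner software, ticks for single probes and dashed lines at 2-fold. Gsta1 and Gsta2 stand highest, at 4.32 and 3.28 in wild-type liver, and Gstm6 is below 0 on both arrays, though above 0 with median centring.

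Counting a gene where its log2 ratio was at least 1 in size and a probe was well above background in at least 1 channel, 5 of 10 members were higher and 0 lower in treated wild-type liver. Of all 16663 genes measured there, 1.86% were higher and 1.64% lower by the same rule. In AID transgenic liver, 5 of 10 members were higher and 0 lower, against 1.22% and 0.947% of 16693 genes. The same 5 genes, Gsta1, Gsta2, Gstm1, Gstm2 and Gstm3, were counted on both arrays, where 0.628% of 16249 genes were higher on both. The median log2 ratio of the members was 1.05 in wild-type and 0.97 in AID transgenic liver, and that of all measured genes was 0.03 on each array. By class, 2 of 4 alpha, 3 of 5 mu and 0 of 1 theta members were higher on each array. Because the members came from 2 gene clusters and 2 single loci, with probes that share sequence, they are not independent of each other. The members were chosen with earlier results of these data known and leave out some mu and theta genes. Their share beside that of all genes is thus a description only.

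**Figure D3:**
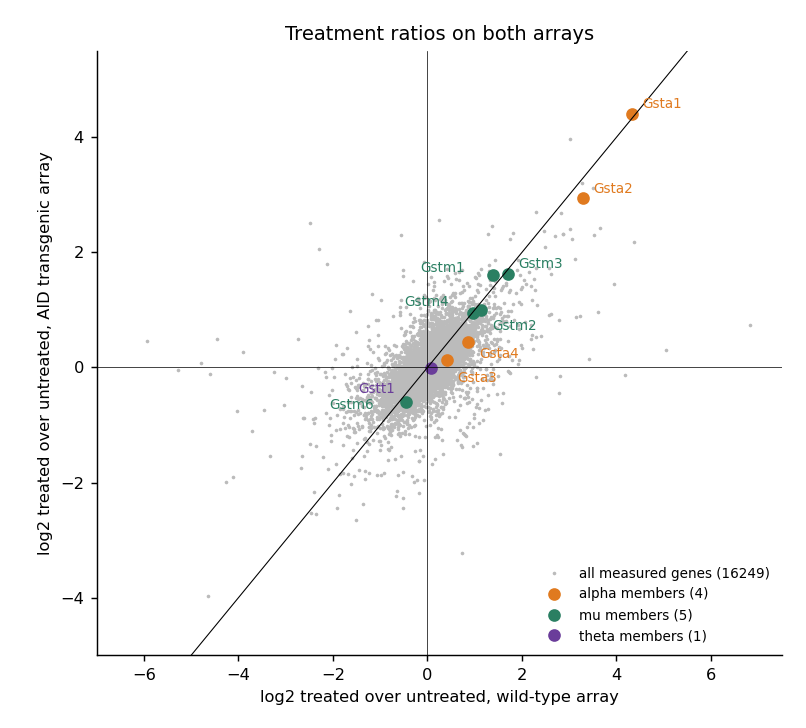
Log2 ratio of treated over untreated on the wild-type array (x axis) against the AID transgenic array (y axis) for the 16249 genes measured on both, in grey, with the members coloured by class and the diagonal of equal ratios. Gsta1 and Gsta2 lie at the upper right edge, near the diagonal, and Gstm6 at the lower left of the origin with this loess normalization, though not with median centring.

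None of the 10 members had treatment ratios that differed by 2-fold or more between the arrays. Of 17107 genes, 1.98% did, in either direction, and at that share finding none among 10 genes says little. The wild-type channels also differed in sex-linked transcripts, as given above, so genotype and those transcripts cannot be told apart here. The difference in treatment log2 ratio, AID transgenic minus wild-type, ran from -0.42 for Gsta4 to 0.22 for Gstm1, with a median of -0.10. For 9 members it was within its technical error, taken as the root of the summed squares of both ratios' errors. The exception was Gsta4, with a difference of -0.42 ± 0.30. How many of all genes lay within such an error was not counted, so the count of 9 is a description only.

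Comparing the genotypes channel by channel, no member was 2-fold apart between the untreated livers, where 0.602% of 14297 genes were, nor between the treated livers, where 1.49% of 17079 genes were. With so few members, finding none says little beside these shares. These comparisons set a channel of 1 array against the same channel of the other. Treated wild-type liver had Xist well above background but not Ddx3y or Eif2s3y, and treated AID transgenic liver the reverse. Between the treated livers, genotype and this difference in sex-linked transcripts cannot be told apart. Here the value after ± combines the software's signal errors of the 2 channels, in log2 units, and was close to 0.20 for every member. Gstm3 was higher in AID transgenic liver without treatment, by a log2 difference of 0.72 ± 0.20, and with treatment, by 0.65 ± 0.20. Its 2 probes gave 1.01 and 0.43 without treatment and 0.91 and 0.39 with it, so both pointed the same way with unequal sizes. Gsta2 was higher in AID transgenic liver by 0.62 ± 0.20 without treatment and by 0.28 ± 0.20 with it. Gsta1 was higher by 0.33 ± 0.20 and 0.42 ± 0.20. Gstt1 was lower in AID transgenic liver, by log2 differences of -0.27 ± 0.20 without and -0.34 ± 0.20 with treatment. In all, 5 members exceeded their technical error between the untreated livers and 6 between the treated livers. The share of all genes beyond such an error was not counted, so these counts are a description only.

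The mu genes form a cluster on chromosome 3 and 3 alpha members one on chromosome 9, while Gsta3 is on chromosome 1 and Gstt1 on chromosome 10. In the gene order of the RefSeq table for GRCm38.p6, the mu cluster runs Gstm5, Gstm7, Gstm6, Gstm3, Gstm2, Gstm1, Gstm4. Gstm5, which is not a member, had log2 ratios of 1.11 ± 0.23 in wild-type and 0.82 ± 0.22 in AID transgenic liver. The adjacent Gstm7 and Gstm6 were both below 0 on both arrays, between genes that were above 0, but not with median centring. The alpha cluster runs Gsta4, Gsta1, Gm3776, Gm10639, Gsta2, with the smallest ratios at Gsta4 and no named probe for Gm3776. The order is a description of neighbours and was not tested.

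**Figure D4:**
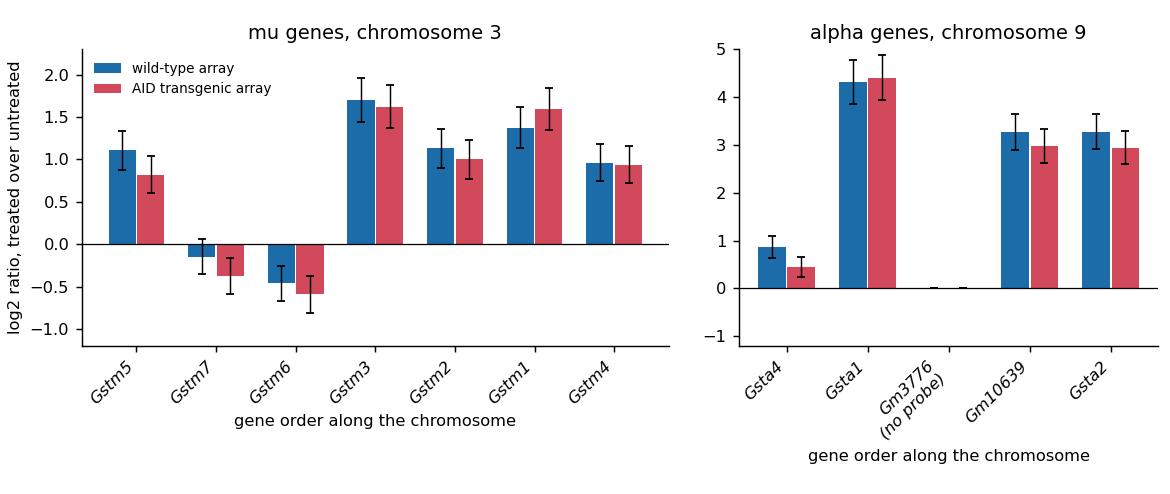
Log2 ratio of treated over untreated along the mu cluster (left) and the alpha cluster (right), in gene order without distances, blue for the wild-type and red for the AID transgenic array, with technical errors and separate y scales. Gstm7 and Gstm6 are the bars below 0, though not with median centring, and Gsta4 is the lowest bar of the alpha cluster.

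Promoters were examined because Gsta1, Gsta2 and Gm10639 had high ratios together while Gsta3 did not. RefSeq sequences for GRCm38.p6 were at hand for 9 of the 10 members, all but Gsta4. Shown are the 250 bases before the start of Gsta1 (chr9:78230419-78230668, plus strand), Gsta2 (chr9:78347146-78347395, minus strand) and Gsta3 (chr1:21240335-21240584, plus strand), 5′ to 3′ on the gene's strand, with matches to a searched motif in capitals.
Gsta1: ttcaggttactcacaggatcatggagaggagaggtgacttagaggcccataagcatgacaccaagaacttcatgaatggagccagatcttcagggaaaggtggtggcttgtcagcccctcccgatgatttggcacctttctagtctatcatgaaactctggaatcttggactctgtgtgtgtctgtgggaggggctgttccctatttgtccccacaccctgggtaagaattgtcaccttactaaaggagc
Gsta2: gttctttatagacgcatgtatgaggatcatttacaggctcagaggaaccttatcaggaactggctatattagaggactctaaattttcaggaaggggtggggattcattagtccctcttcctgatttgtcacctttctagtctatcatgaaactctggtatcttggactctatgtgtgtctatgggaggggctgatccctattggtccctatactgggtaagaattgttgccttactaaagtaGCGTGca
Gsta3: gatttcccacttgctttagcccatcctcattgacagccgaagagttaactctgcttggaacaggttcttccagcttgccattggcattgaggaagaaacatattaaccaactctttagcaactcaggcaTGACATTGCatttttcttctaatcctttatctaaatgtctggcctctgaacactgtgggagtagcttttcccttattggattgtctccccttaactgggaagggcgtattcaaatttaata
Over these 250 bases, Gsta1 and Gsta2 had 72.2% identity, Gsta1 and Gm10639 87.9%, and Gsta2 and Gm10639 64.8%, while Gsta1 and Gsta3 had 54.3%. On both strands, the antioxidant response element core TGACNNNGC, the site of Nrf2 with small Maf proteins, and the xenobiotic response element core GCGTG, that of the aryl hydrocarbon receptor, were searched. TGACNNNGC was found in 10.2% of 32851 mouse promoter windows of this length. Among the 9 members it was found in 1, Gsta3, as TGACATTGC 121 bases before the start. GCGTG was found in 28.2% of windows and in 2 members, Gsta2 and Gstm1, at 7 bases before the start in Gsta2. The shares are per window, while a member counts where any of its windows matched. Gstm1, Gstm4 and Gstm6 had several windows, so members and shares are not in the same unit. A match is a run of letters and not a shown site, and no match says only that these letters are not in this window.

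Genes around the transferases in the pathway were mostly less than 2-fold apart, with values for glutathione synthesis, export and Nrf2 above that line. Gclc, the catalytic subunit of the enzyme that makes the first and rate-limiting step of glutathione synthesis, had levels of 12.91 and 14.81 in untreated and treated wild-type liver, and of 13.06 and 14.76 in untreated and treated AID transgenic liver. Its log2 ratios were 1.90 ± 0.27 and 1.70 ± 0.26. Gclm, the modifier subunit of the same enzyme, was at 0.10 ± 0.20 and 0.01 ± 0.20, and Gsr, which regenerates reduced glutathione, at 0.05 ± 0.20 and 0.27 ± 0.21. Of the 12 measured genes of glutathione supply and recycling, 2 were higher and 1 lower in wild-type liver, and 1 higher and 1 lower in AID transgenic liver. The others counted were Ggct, which breaks down gamma-glutamyl peptides, with 1.32 and 0.67, and Chac1, which degrades glutathione, with -1.56 and -1.88. None of 6 glutathione peroxidase genes was counted on either array, which says little beside the small shares of all genes counted. Their median log2 ratios were 0.46 in wild-type and 0.13 in AID transgenic liver.

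Among the exporters of conjugates, 2 of 8 were higher on each array. Abcc4 had log2 ratios of 2.69 ± 0.38 and 2.28 ± 0.35, and Abcc2, the canalicular exporter of glutathione conjugates, 1.03 ± 0.23 and 1.01 ± 0.22. Abcc3 was at -0.08 and -0.23. Abcg2 was lower in treated wild-type liver, at -1.50, but at 0.15 in AID transgenic liver, and the wild-type value was under 2-fold with median centring. Of 11 measured genes of mercapturate formation and conjugate breakdown, Nat8, which acetylates cysteine conjugates, was the one counted, lower in treated wild-type liver at -1.63 and at 0.99 in AID transgenic liver. It too was under 2-fold in wild-type liver with median centring.

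Of 14 regulators, Nfe2l2 was the one higher on both arrays. Its level was 10.86 and 12.16 in untreated and treated wild-type liver, and 10.61 and 12.39 in untreated and treated AID transgenic liver, with log2 ratios of 1.29 ± 0.24 and 1.78 ± 0.27. Keap1 was at 0.02 and 0.06. Nr1i2 was at -0.15 in wild-type and, lower, at -1.44 in AID transgenic liver, where it was under 2-fold with median centring. Without treatment its level was 10.27 in wild-type and 11.34 in AID transgenic liver. Nr1i3 was at -0.24 and -0.53.

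The other transferases include the pi, omega, kappa, zeta and microsomal enzymes. They also include mu and theta genes that are not members, Gstm5, Gstm7, Gstt2, Gstt3 and Gstt4. Of 16 measured, 3 were higher and 2 lower in treated wild-type liver, and 0 were counted in AID transgenic liver. The 2 lower ones were of the pi class. Gstp1 had levels of 15.71 and 13.92 in untreated and treated wild-type liver, and of 15.72 and 15.03 in untreated and treated AID transgenic liver, with log2 ratios of -1.79 ± 0.26 and -0.69 ± 0.22. Gstp2 was at -1.70 and -0.32. Both wild-type values were under 2-fold with median centring, and both AID transgenic ones turned positive. Besides Gstm5, the higher ones in wild-type liver were Mgst3, a microsomal enzyme, with 1.51 and 0.35, and Gsto2, at least 2.21-fold and at least 1.66-fold higher since it was not well above background in untreated liver. Mgst1, the microsomal enzyme of hepatocytes, was at -0.21 and 0.03. Of the theta genes, Gstt3 was at 0.74 and 0.23 and Gstt2 at 0.33 and -0.54. Gstt4 was not well above background in untreated liver on either array. Pi transferases are known to be more abundant in male than in female mouse liver, and the sex-linked transcripts given above moved with the wild-type values of Gstp1 and Gstp2. Their part in these ratios was not tested.

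**Figure D5:**
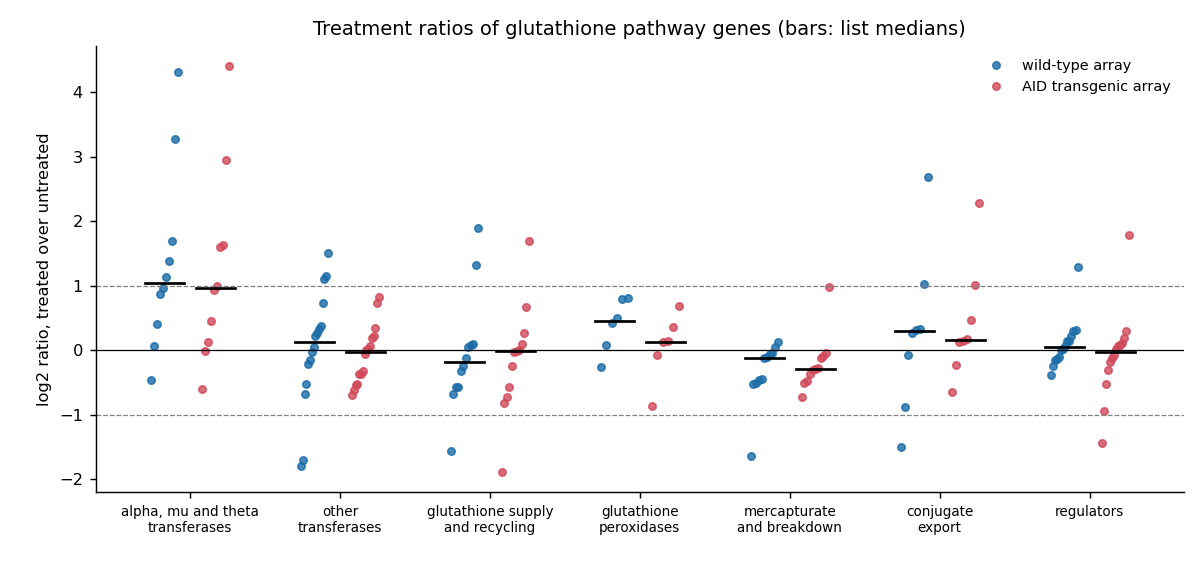
Log2 ratio of treated over untreated for each measured gene of 7 groups, blue for the wild-type and red for the AID transgenic array, with black bars at the medians and dashed lines at 2-fold. The members' medians of 1.05 and 0.97 are near the 2-fold line, and the medians of the other groups lie between -0.28 and 0.46.

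Non-hepatocyte markers moved differently on the arrays. The summed linear level of 8 stellate cell and myofibroblast markers was 3134 and 5942 in untreated and treated wild-type liver, and 5023 and 3260 in untreated and treated AID transgenic liver. Col1a1 had log2 ratios of 1.60 and -0.44, and Acta2 of -0.32 and -1.89. The sum of 6 macrophage markers was 9917 and 11270, and 15140 and 31100, in the same order, with list medians of the log2 ratio of 0.16 and 0.82. None of the 6 was 2-fold higher in treated wild-type liver and 2 were in treated AID transgenic liver. Cd5l, a gene of liver macrophages, was at 0.15 and 1.48, and Cd68, the lowest of the 6 on both arrays, at -0.16 and 0.00. The sum of 6 cholangiocyte markers was between 777.7 and 1046 in all 4 channels, with Krt19 at 0.59 and -0.87, and Epcam was well above background in treated wild-type liver only. The sum of 5 endothelial markers was between 16710 and 19540 and that of 7 lymphocyte markers between 2238 and 2772, with Ptprc at -0.09 and 0.32. Gsta1, Gsta2, Gstm1, Gstm2, Gstm3 and Gclc were higher by treatment on both arrays, while the summed stellate level was higher in treated wild-type and lower in treated AID transgenic liver. The part of cell composition in the members' ratios was not tested.

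Gene neighbours were sought by the distance over 3 values, the treatment log2 ratio on each array and the log2 difference between untreated AID transgenic and wild-type liver, among 13438 genes well above background in all 4 channels. For Gsta1, the nearest were Cbr3, a carbonyl reductase, at a distance of 1.38 with ratios of 3.02 and 3.98, then Car2, Ly6d, Gm10639 and Phlda3. For Gstm3, the nearest were Krt31 at 0.27, Egr1, Prss8, Gbp11 and Tubb2a. For Gstt1, the nearest were Tusc3 at 0.05, Prdx6-ps2, Impg1, Prkra and Fam110c. A distance over 3 values from 2 arrays is a description of these channels.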

How the data were processed

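RNA was measured on 2 Agilent 2-colour arrays. The authors deposited the scanner output, whose mean signals, background medians, processed signals and signal errors are intensity values, per the file headers. The deposited log ratios are on a log10 scale, red over green, and their error is the software's error-model score, per the file headers. The series' value table equalled the scanner log ratios on all 44397 features of each array, so its scale and direction are known. The software is Agilent Feature Extraction, given as 10.7.3.1 in the file headers and as 10.5.1.1 in the submitters' processing notes. The processed signals are already background-subtracted and dye-normalized.

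Mean signals were corrected with normexp (offset 50) and normalized by loess within each array in R 4.3.3 with limma 3.58.1, with weight 0 for control and outlier spots. Levels and comparisons across arrays used Aquantile values. Control spots were left out, as were 197 and 207 outlier spots on the wild-type and the AID transgenic array. The offset shrinks ratios of dim spots. The normalization was tested by adding known shifts to the red signal of some spots of these arrays. Bright spots had to recover the shift closely, while over all shifted spots only its direction was required. Spots of a probe and probes of a gene were averaged. Of 39429 probes, 26055 were named by RefSeq accession, 3195 by symbol and 930 by synonym, and 9249 had no match. A gene entered a comparison where a probe was well above background in a channel compared, and was counted at 2-fold. Where it was not well above background in the dimmer channel, the fold is given as at least that against the higher of the lowest signal among well detected probes and the probe's own level. With 1 array per genotype, the number of arrays limits the precision, and no p-value is given.

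All members were described with every probe. From the pathway lists, genes at least 2-fold apart by treatment on either array were named, and 13 genes fixed by name (Gclc, Gclm, Gsr, Gstp1, Gstm5, Gstm7, Mgst1, Abcc2, Abcc3, Nfe2l2, Keap1, Nr1i2, Nr1i3). The members and lists were chosen with earlier results of these data known. Probe coordinates are those of the files (mm9). Promoters and gene order are of GRCm38.p6, and the builds were not mixed. The 6 alternatives tried were a normexp offset of 0, the software's processed signals, median centring in place of loess, detection in every channel, the brightest probe of a gene, and outlier spots kept. A check of the genotype label is not reported here.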

Additional observations from a re-analysis of the deposited data

Results flagged for a closer look

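For 3 named genes outside the transferases, the treatment ratio was beyond its technical error in opposite directions on the 2 arrays, and the difference was not tested, since each genotype had 1 array. Nat8 had log2 ratios of -1.63 in wild-type and 0.99 in AID transgenic liver, a difference of 2.62. Its wild-type value was under 2-fold with median centring. Krt19, a keratin of bile duct cells, had 0.59 and -0.87, a difference of -1.46. Col1a1, a collagen of fibrogenic cells, had 1.60 and -0.44, a difference of -2.03. Gstt2, a theta transferase that is not a member, also met this criterion, at 0.33 ± 0.21 and -0.54 ± 0.21. None of the 10 members did, but the share of all genes that did was not counted, so this says little. On the wild-type array, treatment cannot be told apart from the difference in sex-linked transcripts given above.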

How the results depend on the processing

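None of the 5 members counted on either array lost its 2-fold call under any of the 6 alternatives, and the members' counts and medians otherwise held within 1.5 times and within the technical error, except as follows. With median centring in place of loess, the count in wild-type liver was 8 with Gsta3, Gsta4 and Gstm4 added, and the members' median ratio was 1.75 in wild-type and 1.66 in AID transgenic liver, where the median of all genes itself moved to 0.35 and 0.34. With the brightest probe alone, 1 member, Gstm3, was 2-fold higher in untreated AID transgenic than in untreated wild-type liver. The cause was not tested. Over all genes, the count of treatment calls in wild-type liver was 310 higher and 274 lower (53.1% higher), and 782 and 406 (65.8%) with offset 0, 1576 and 605 (72.3%) with processed signals, and 1729 and 102 (94.4%) with median centring. In AID transgenic liver it was 203 and 158 (56.2%), and 620 and 269 (69.7%), 1518 and 474 (76.2%), and 1358 and 53 (96.2%). The count of genes whose ratios differed between arrays, 159 and 180, was 376 and 504 with offset 0 and 802 and 943 with processed signals. That between untreated livers, 44 and 42, was 106 and 99, and 215 and 204, and that between treated livers, 125 and 129, was 238 and 230, and 462 and 460. Among the 21 named pathway genes, no call turned direction; in AID transgenic liver, median centring added Gstm5, Ggct and Nat8 as higher, and offset 0 and processed signals each added Gsto2 and Nat8. Dim signals limit the low genes, not the members, which were all well above background. No paired analysis was possible because each genotype had 1 array.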
